A study of Mus musculus with 20 samples.

Results

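Ionotropic glutamate receptors are ligand-gated ion channels assembled from 4 subunits, and 10 of their subunit genes were followed here in dorsal root ganglia (DRG) of late mouse embryos at embryonic day E18.5. The genes were picked by symbol and mapped to Ensembl identifiers: the AMPA receptor subunits Gria1, Gria2, Gria3 and Gria4, the kainate receptor subunits Grik1, Grik2 and Grik5, and the NMDA receptor subunits Grin1, Grin2d and Grin3a. The expression table held 37620 genes, 14529 of them passed the filter on low values, and all 10 subunit genes were among these. The samples were 20 libraries of whole DRG from 10 C57Bl6 embryos of that age, 5 male and 5 female, with no transgene, deletion or treatment in any group. Each embryo gave 1 lumbar library (L4-5) and 1 library from the neighbouring L6-S1 ganglia, called sacral in the study, which made 4 groups of 5 libraries by level and sex. The ganglia were homogenised whole, so neurons, glia and connective tissue were read together.

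AMPA receptors carry most fast excitatory currents at central synapses, kainate receptors tune transmitter release and excitability, and NMDA receptors need both glutamate and a co-agonist to open. In the DRG these channels are best known from the somata, peripheral endings and central terminals of sensory neurons, where GluK1 kainate receptors are a classical feature of small-diameter neurons. Whether an AMPA receptor lets calcium through depends on 1 amino acid of its pore, the Q/R site. The genome encodes glutamine there in every AMPA subunit, and in Gria2 RNA the enzyme encoded by Adarb1 edits the codon so that arginine is made, which blocks calcium entry.

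The coding stretch around the Q/R site is printed for the AMPA and kainate subunits because it shows what the subunits share at the position that sets this property. Each sequence was read from the mouse genome (mm9), on the strand of the gene, with the Q/R codon in capitals, and each equalled the GENCODE M1 transcript. The codon was located as the one 29 codons before the conserved gate motif of the membrane segment M3. The window ends at the end of the exon where fewer than 21 bases follow the codon.
Gria1 (chr11:57056575-57056619, plus strand, exon 11 of 16): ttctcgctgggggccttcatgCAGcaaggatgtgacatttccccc
Gria2 (chr3:80510812-80510856, minus strand, exon 11 of 17): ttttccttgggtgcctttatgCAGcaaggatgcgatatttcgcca
Gria3 (chrX:38963421-38963465, plus strand, exon 11 of 16): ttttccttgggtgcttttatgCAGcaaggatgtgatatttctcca
Gria4 (chr9:4464116-4464160, minus strand, exon 12 of 17): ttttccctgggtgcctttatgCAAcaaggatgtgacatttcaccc
Grik1 (chr16:87940783-87940810, minus strand, exon 11 of 16): tttggcgttggagctctcatgCAGcaag
Grik2 (chr10:48964131-48964158, minus strand, exon 12 of 16): tttggagttggagctctcatgCAGcaag
Grik5 (chr7:25807495-25807539, minus strand, exon 15 of 20): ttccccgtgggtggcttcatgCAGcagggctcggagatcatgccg

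The codon was CAG in 6 of these 7 genes and CAA, also glutamine, in Gria4. Against Gria2, 42 of the 45 bases were equal in Gria3, 39 in Gria4, 36 in Gria1 and 31 in Grik5. In Gria2 the codon lies 23 bases before the end of its exon, as it does in the other AMPA genes, whereas 4 bases remain in Grik1 and Grik2. The deposited values are sums per gene and hold no information on how much of the RNA was edited.

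Depth and tissue identity bear on every value below. Depth, recovered from the values, was 19606261 to 39678956 reads per library, and the 2 mitochondrial rRNA genes took 17.8% to 61.1% of them, which leaves libraries with unequal numbers of other reads. The deposited values had the same median in every library, 0.93 log2 RPKM over the genes with a value. The paper names TMM and voom scaling and does not mention a step that sets a common median. All 12 pan-neuronal genes, all 12 genes of small nociceptive sensory neurons, all 10 of large myelinated sensory neurons and all 13 of Schwann cells and satellite glia passed the filter, as a DRG label requires, against 1 of 12 genes of spinal cord neurons and glia. All 10 skeletal muscle genes passed it too, with a summed level of 36.5 to 689 RPKM in lumbar and 37.5 to 440 RPKM in sacral libraries. Genes of several cell types also differed with spinal level at an adjusted p of 0.05 (limma). Called lower in sacral libraries were 5 of 10 large myelinated neuron genes, 6 of 13 Schwann and satellite glia genes and 3 of 12 pan-neuronal genes, beside 4.03% of all tested genes. Called higher were 5 of 10 fibroblast and meningeal genes, beside 2.7% of all tested genes. The summed level of the pan-neuronal genes was 1435 to 3412 RPKM in lumbar and 619 to 2248 RPKM in sacral libraries, and was lower in sacral ganglia of 9 of 10 embryos. The neurofilament genes Nefl and Nefm, at 9.23 and 8.01 log2 RPKM, weigh heavily in this sum. All 12 differences were negative, with a median of -0.34. They ran from -0.05 for Elavl4 and -0.07 for Syt1 to -0.90 for Nefl and -1.14 for Nefm. In whole ganglia, fewer cells of a type and less RNA per cell cannot be told apart, and the part of cell makeup in the results below was not tested.

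Levels are given as log2 RPKM, in which read numbers are divided by exon length in kilobases and by library size, so they can be compared between genes. Grik1, which encodes the kainate subunit GluK1, had the highest level of the 10 genes at 5.03 ± 0.51 (SD, n = 20), above 94.96% of all tested genes. Below it came Gria4 at 3.02 ± 0.53, Grik5 at 2.96 ± 0.40, Gria2 at 2.81 ± 0.32 and Grin1 at 2.57 ± 0.61. Lower still were Gria3 at 1.68 ± 0.21, Grin3a at 1.13 ± 0.48, Gria1 at 1.07 ± 0.51 and Grik2 at 1.001 ± 0.35. Grin2d was lowest at 0.52 ± 0.54, above 16.9% of tested genes.

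Neighbours in this order were compared within embryos, as the mean of each embryo's lumbar and sacral libraries. Grik1 exceeded Gria4 in 10 of 10 embryos, by 2.01 ± 0.18 on the log2 scale (SD over embryos, n = 10). Grin1 exceeded Gria3 by 0.89 ± 0.64 in 8 of 10 and Gria3 exceeded Grin3a by 0.55 ± 0.44 in 9 of 10. The other neighbours differed by less than their SD over embryos: Gria4 and Grik5 by 0.06 ± 0.30, Grik5 and Gria2 by 0.14 ± 0.24, Gria2 and Grin1 by 0.25 ± 0.40, Grin3a and Gria1 by 0.05 ± 0.26, Gria1 and Grik2 by 0.07 ± 0.45, and Grik2 and Grin2d by 0.48 ± 0.49. In that order of pairs, the gene named first was higher in 5, 7, 7, 7, 6 and 9 of 10 embryos. The first of these pairs changed order with spinal level, since Gria4 was above Grik5 in 9 of 10 lumbar but in 3 of 10 sacral libraries. The order rests on the annotated exon lengths, from 3332 bases for Grik1 to 15779 bases for Grin3a. No library lacked reads for any of the 10 genes, and the lowest read count was 81, for Grin2d.

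**Figure D1:**
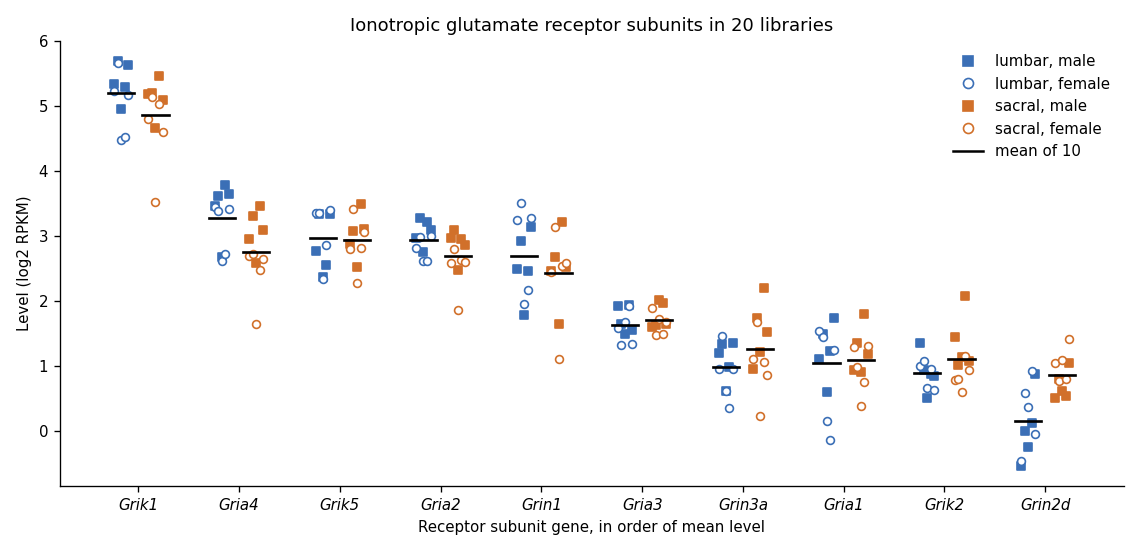
Level of each subunit gene in log2 RPKM (y axis), with genes ordered by mean level, lumbar libraries in blue, sacral in orange, filled squares for male and open circles for female embryos, and a bar at the mean of 10 libraries. Grik1 stands above the other genes in both ganglia, and the lumbar and sacral values of every gene overlap.

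The main comparison asked which subunit genes differ between sacral and lumbar DRG of the same embryo. Gria4 was lower and Grin2d was higher in sacral DRG, and the other 8 genes did not pass the threshold of an adjusted p of 0.05 (limma, Benjamini-Hochberg over 14529 genes). Thus 2 of 10 were called, where 6.73% of all tested genes were called, 2.7% as higher and 4.03% as lower. The median log2 difference of the 10 genes was 0.01, beside -0.05 over all genes, and 5 genes had a positive and 5 a negative difference. An unadjusted p under 0.05 was reached by 4 of the 10, the called genes with Gria2 and Grik1, and by 24.1% of all tested genes. No member had lumbar and sacral values that did not overlap, which held for 0.138% of all tested genes.

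Gria4 (ENSMUSG00000025892, chr9:4417899-4796234, minus strand) encodes GluA4, a fast-gating AMPA subunit. Its level in lumbar libraries was 2.62 at the lowest, 3.43 at the median and 3.78 at the highest, and in sacral libraries 1.65, 2.71 and 3.47 log2 RPKM. Of the 10 sacral values 3 lay below the lowest lumbar value, and the others fell within the lumbar range. Within embryos the sacral level was lower in 10 of 10. The sacral minus lumbar difference was -0.52, -0.31, -0.10, -0.32 and -0.55 in males M1, M3, M5, M7 and M8, and -0.75, -0.66, -0.97, -0.25 and -0.77 in females F10, F3, F7, F8 and F9. Among all tested genes, 2.85% went 1 way in all 10 embryos. The fitted difference was -0.52 ± 0.13 (SE; 95% interval -0.79 to -0.25), a 1.43-fold lower level, with an adjusted p of 0.0211 by limma. The limma call was lost without embryo M1 (adjusted p = 0.0555), F10 (0.0529) or F3 (0.0505), and without the embryo block (0.155). The difference stayed between -0.59 and -0.46 in all 21 alternative settings.

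Grin2d (ENSMUSG00000002771, chr7:53087253-53126298, minus strand) encodes GluN2D, an NMDA subunit that gives slow channels with weak magnesium block. Its lumbar level was -0.53 at the lowest, 0.07 at the median and 0.93 at the highest, and its sacral level 0.52, 0.81 and 1.43 log2 RPKM. The sacral values lay in the upper part of the lumbar range or above it. The difference was 1.05, 0.80, 0.87, 0.42 and 0.18 in males M1, M3, M5, M7 and M8, and 1.499, 0.17, 0.71, -0.12 and 1.46 in females F10, F3, F7, F8 and F9. It was thus positive in 9 of 10 embryos, a share in 1 direction that 12.1% of all tested genes reached or passed. The fitted difference was 0.70 ± 0.16 (SE; 95% interval 0.37 to 1.04), a 1.63-fold higher level, with an adjusted p of 0.0135 by limma. The limma call was lost without the embryo block (adjusted p = 0.0722) and, in an alternative chosen after seeing the data, without M5 and F7, the 2 embryos of highest mitochondrial rRNA share (0.111). The fold depends on the scale, because on log2(RPKM + 1) values the difference was 0.40.

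**Figure D2:**
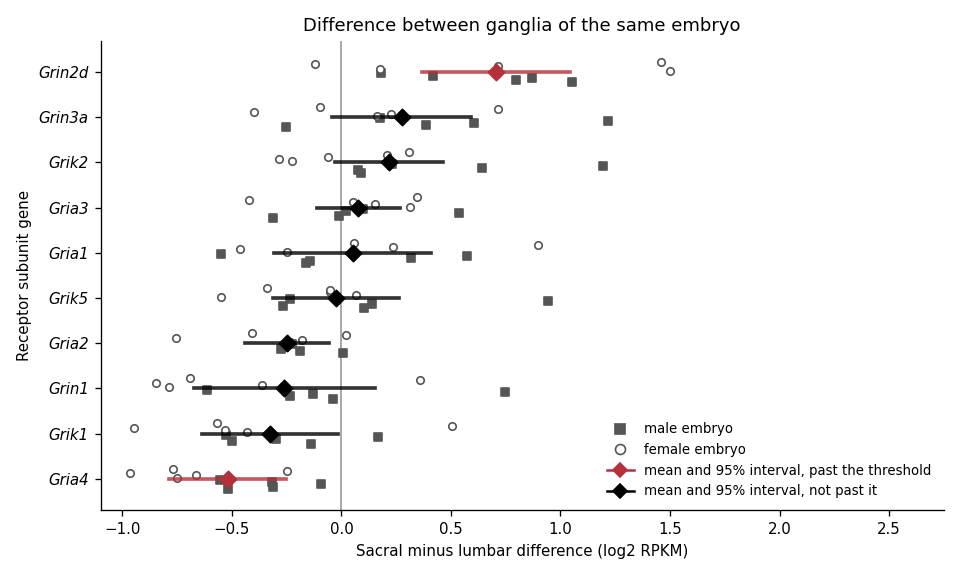
Sacral minus lumbar difference in log2 RPKM (x axis) for each subunit gene (y axis), with 1 point per embryo (filled squares male, open circles female) and a diamond with a bar for the fitted mean and its 95% interval, red where the adjusted p was at most 0.05. All 10 points of Gria4 lie below 0 and 9 of 10 points of Grin2d lie above it.

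The other AMPA subunits did not pass the threshold. Gria2 (ENSMUSG00000033981, chr3:80488858-80606713, minus strand), whose edited form makes receptors impermeable to calcium, had 2.62, 2.98 and 3.28 log2 RPKM as the lowest, median and highest lumbar values and 1.87, 2.73 and 3.09 as the sacral ones. Its sacral minus lumbar difference was negative in 8 of 10 embryos and was fitted at -0.25 ± 0.09 (adjusted p = 0.104, limma). Gria1 (ENSMUSG00000020524, chr11:56824889-57143746, plus strand), the subunit of activity-driven AMPA receptor insertion, ranged from -0.14 to 1.75 in lumbar and from 0.39 to 1.81 in sacral libraries. It was higher in sacral DRG of 5 embryos and lower in 5, with a fitted difference of 0.05 ± 0.17 whose 95% interval ran from -0.31 to 0.41. Gria3 (ENSMUSG00000001986, chrX:38754031-39031778, plus strand), the X-linked AMPA subunit, ranged from 1.33 to 1.95 in lumbar and from 1.48 to 2.03 in sacral libraries. Its difference was 0.08 ± 0.09, with an interval of -0.11 to 0.27, the narrowest of the family.

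None of the 3 kainate subunits passed. Grik1 (ENSMUSG00000022935, chr16:87896441-88289947, minus strand) had a lumbar range of 4.47 to 5.70 around a median of 5.26 and a sacral range of 3.53 to 5.46 around 5.06. It was lower in sacral DRG of 8 of 10 embryos, M7 and F8 being the exceptions, and its fitted difference was -0.33 ± 0.15 (95% interval -0.64 to -0.02) with an adjusted p of 0.187 by limma. It passed without embryo F8 (-0.44, adjusted p = 0.0492) and with libraries weighted by their quality (-0.36, adjusted p = 0.0293). Grik2 (ENSMUSG00000056073, chr10:48819266-49508572, minus strand), encoding GluK2, ranged from 0.51 to 1.36 in lumbar and from 0.61 to 2.08 in sacral libraries. Its sacral level was higher in 5 of 5 males and in 2 of 5 females, with a fitted difference of 0.22 ± 0.12 (adjusted p = 0.266). Grik5 (ENSMUSG00000003378, chr7:25794872-25857388, minus strand) encodes GluK5, which forms no channel alone and raises the glutamate affinity of receptors it joins. Its difference was -0.02 ± 0.14, with an interval of -0.31 to 0.26 and with 4 embryos higher and 6 lower.

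Of the NMDA subunits, the obligatory subunit Grin1 and the glycine-binding subunit Grin3a did not pass. Grin1 (ENSMUSG00000026959, chr2:25146701-25174707, minus strand) had a lumbar range of 1.78 to 3.51 and a sacral range of 1.12 to 3.21 log2 RPKM, the widest spread of the family over all 20 libraries. It was lower in sacral DRG of 8 of 10 embryos, by 0.85 in F7 at most, but higher by 0.75 in M7 and by 0.36 in F8, and the fitted difference was -0.26 ± 0.20 (adjusted p = 0.431). Of its exon bases 13.5%, or 1307 bases, are shared with E130003G02Rik on the opposite strand, and reads of the pair cannot be separated where strand use in counting is not stated. Grin3a (ENSMUSG00000039579, chr4:49674483-49858616, minus strand) had a lumbar range of 0.35 to 1.46 and a sacral range of 0.23 to 2.21, and was higher in sacral DRG of 7 of 10 embryos. Its fitted difference was 0.27 ± 0.15, with a 95% interval of -0.04 to 0.59 and an adjusted p of 0.276.

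The composition of each receptor class was described from the RPKM of its measured members, which sum to 100% within a library. No test was run on these shares, since they are made of values already compared. Gria4 made up 42.8% ± 3.97 of the AMPA class in lumbar and 36.2% ± 4.28 in sacral DRG (SD, n = 10), and its share was lower in sacral DRG of 10 of 10 embryos. The share of Gria2 was 33.7% ± 2.77 in lumbar and 34.4% ± 3.05 in sacral DRG, higher in 6 of 10 embryos and lower in the other 4. Gria3 made up 14.1% ± 3.89 in lumbar and 18.0% ± 4.92 in sacral DRG, and Gria1 9.35% ± 2.34 and 11.4% ± 1.47, each with a higher share in sacral DRG of 8 of 10 embryos. The summed level of the class was 23.2 ± 4.601 RPKM in lumbar and 19.3 ± 4.14 RPKM in sacral DRG, lower in 9 of 10 embryos. Per length, Gria4 was on average the most abundant AMPA transcript in lumbar DRG, and in sacral DRG it lay close to Gria2. In the lumbar libraries of M5 and F7, Gria2 had the larger share (38.6% against 36.7%, and 37.1% against 37.0%).

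In the kainate class Grik1 gave 78.8% ± 3.93 of the RPKM in lumbar and 74.5% ± 4.32 in sacral DRG, with a lower share in sacral DRG of 8 of 10 embryos. Grik5 gave 17.1% ± 3.54 and 19.9% ± 3.63, and Grik2 gave 4.10% ± 1.09 and 5.65% ± 1.45, with a higher Grik2 share in sacral DRG of 9 of 10 embryos. In the NMDA class Grin1 held 66.8% ± 7.28 in lumbar and 55.4% ± 7.70 in sacral DRG and was lower in 9 of 10 embryos. Grin2d held 12.6% ± 5.83 and 19.9% ± 8.18, and Grin3a 20.7% ± 4.25 and 24.7% ± 4.89, each higher in sacral DRG of 8 of 10. The summed NMDA level was 10.2 ± 3.19 RPKM in lumbar and 10.3 ± 2.91 RPKM in sacral DRG, higher in 5 of 10 embryos. The kainate and NMDA shares leave out the other subunits of those classes.

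**Figure D3:**
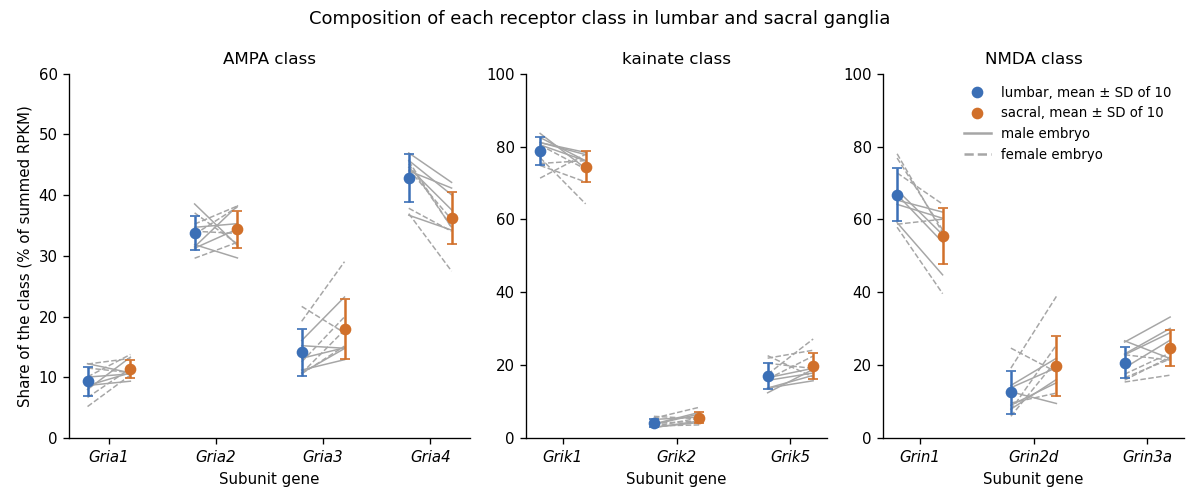
Share of each subunit gene in the summed RPKM of its class (y axis, %), with 1 grey line per embryo from lumbar to sacral (solid male, dashed female) and points with bars for the mean ± SD of 10 libraries. The Gria4 share is lower in sacral DRG of all 10 embryos, and the Grin1 share in 9.

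The level comparison was then made within each sex, and sex within each level. No subunit gene was called in males (0.461% of all tested genes were) or in females (0.881%), with unadjusted p under 0.05 for 2 genes in males (11.9% of all tested genes) and for 3 in females (17.5%). For Gria4 the sacral minus lumbar difference was -0.36 ± 0.18 in males (adjusted p = 0.455) and -0.68 ± 0.18 in females (adjusted p = 0.0765, limma). For Grin2d it was 0.66 ± 0.23 in males (adjusted p = 0.218) and 0.75 ± 0.23 in females (adjusted p = 0.113). In females Gria4 passed in 4 of 21 alternatives, without F8 (-0.79, adjusted p = 0.0272), with the embryo block as a fixed effect (0.0292), with libraries weighted by quality (0.00333) and with the mitochondrial rRNA share as a covariate (0.0378). Grin2d passed in females in 2 of 21, without F8 (0.96, adjusted p = 0.0273) and with libraries weighted by quality (0.0104). The interaction, which tests whether the level difference itself depends on sex, called 0 of 14529 genes (0.0%) by limma, with 470 genes and none of the 10 subunit genes at an unadjusted p under 0.05. The interaction was -0.32 ± 0.26 for Gria4 and -0.46 ± 0.24 for Grik2, each with an adjusted p of 0.995.

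Between the sexes no subunit gene was called in lumbar DRG, where 0.33% of all tested genes were, and none had an unadjusted p under 0.05. Female minus male differences there ran from -0.38 ± 0.30 for Gria1 to 0.27 ± 0.35 for Grin1. In sacral DRG none was called either, against 1.01% of all tested genes, while 9 of 10 differences were negative (53.9% over all tested genes) and 3 reached an unadjusted p under 0.05 (Gria2, Gria4 and Grik2), as did 15.5% of all tested genes. The sacral level of Gria4 was 2.95, 3.31, 2.59, 3.47 and 3.09 log2 RPKM in males M1, M3, M5, M7 and M8, and 2.70, 2.73, 1.65, 2.47 and 2.65 in females F10, F3, F7, F8 and F9. Only the lowest male, M5, lay within the female range. The female minus male difference was -0.64 ± 0.22 (adjusted p = 0.176, limma), and it passed in 2 of 20 alternatives, with libraries weighted by quality (-0.54, adjusted p = 0.0462) and with the mitochondrial rRNA share as a covariate (-0.54, adjusted p = 0.0467). Grik2 differed by -0.50 ± 0.21 (adjusted p = 0.263), Grik1 by -0.50 ± 0.26 (adjusted p = 0.359) and Gria2 by -0.37 ± 0.16 (adjusted p = 0.28). The values of males and females overlapped for each of the 10 genes at both levels, where 2.19% of all tested genes in lumbar and 3.96% in sacral DRG had values that did not.

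The libraries also varied within the 4 groups, and 8 of the subunit genes varied together. After the mean of each group was subtracted, Pearson's r over the 20 libraries was 0.95 between Grin1 and Grik1, 0.94 between Grin1 and Grik5, 0.92 between Grin1 and Gria4, and 0.89 between Gria2 and Grik1 or Gria4. Gria1 and Grin3a joined this set with r of 0.64 to 0.87, and Grik2 joined it less closely, with r of 0.30 to 0.47. Gria3 had negative r with each of them except Grik2, from -0.44 to -0.16. Grin2d had r between -0.20 and 0.06 with every other member. These are descriptions over libraries that share embryos in pairs and differ in mitochondrial rRNA share and hence in the depth left for other genes.

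The mitochondrial rRNA share moved with the members of the co-varying set. Within groups its r was -0.83 with Grin1, -0.81 with Gria4, -0.80 with Grik5, -0.78 with Gria2, -0.74 with Grik1, -0.68 with Grin3a and -0.66 with Gria1. It was -0.33 with Grik2, 0.35 with Gria3 and 0.02 with Grin2d. With that share as a covariate, the level difference was -0.50 ± 0.10 for Gria4 (adjusted p = 0.0064, limma) and 0.70 ± 0.18 for Grin2d (adjusted p = 0.0225). The share itself was higher in sacral DRG of 3 of 10 embryos, and its mean sacral minus lumbar difference was 0.62 ± 9.41 percentage points (SD, n = 10).

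**Figure D4:**
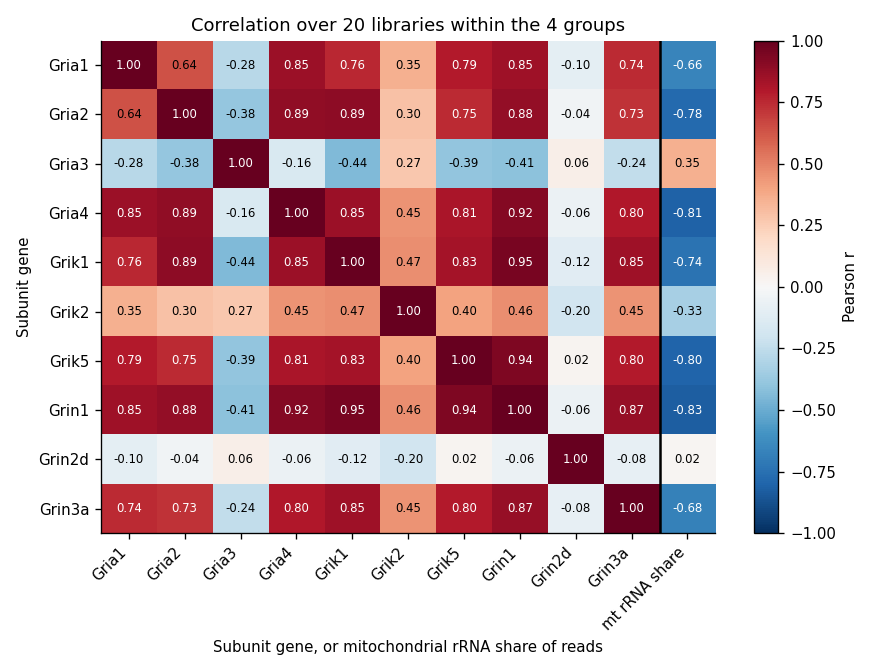
Pearson correlation of log2 RPKM between subunit genes (rows and columns) over 20 libraries after the mean of each of the 4 groups was subtracted, with the correlation with the mitochondrial rRNA share of reads in the last column. Most genes form 1 positively correlated block, while Gria3 and Grin2d lie outside it.

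The 3 tested genes outside the family that followed each member most closely within groups were listed by the same r. These r are the highest over all tested genes, so they are high by selection, and none was tested. Most members also moved with the mitochondrial rRNA share, so a high r does not mark a gene as particular to 1 subunit. For Grin1 they were Gabbr2, a GABA-B receptor subunit (0.99), Syt1, a synaptic vesicle calcium sensor (0.99), and Sv2c, a synaptic vesicle protein (0.99). For Grik1 they were Scn10a, the sodium channel of nociceptors (0.99), Prkca, a protein kinase C (0.98), and Tmem151a (0.97). For Gria4 they were Slc9a9, an endosomal sodium-proton exchanger (0.98), Sgpp2, a sphingosine-phosphate phosphatase (0.98), and Reep1 (0.97). For Gria2 they were Car10, Pcsk1n and Ndn (0.96, 0.95 and 0.95). For Grin3a they were Prune2, Ahnak2 and Tnks (0.97, 0.95 and 0.95), and for Gria1 Cnnm1, Lmln and A830010M20Rik (0.92, 0.92 and 0.91). For Grik5 they were E130003G02Rik, which overlaps Grin1, with Rusc2 and Zdhhc9 (each 0.94). The closest followers of Grik2 (Lamb1, Tm7sf3 and Gm13416; 0.82, 0.81 and 0.79), Gria3 (Mir1955, Snora47 and 4930570N19Rik; 0.82, 0.80 and 0.77) and Grin2d (Usp4, Mier3 and Sun2; 0.76, 0.75 and 0.74) were less close.

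Other ionotropic subunits were examined next, since receptors assemble from whatever subunits a cell makes. Of 7 other subunit genes followed, 1 passed the filter, Grik4 (GluK4), and it was not called, with a sacral minus lumbar difference of 0.12 ± 0.16. Grin2c had a value in too few libraries to be tested, with 0 to 9 reads in each. The other 5 lay below the filter and were compared with an exact sign-flip permutation test over the 10 embryos (two-sided, smallest possible p 0.00195), adjusted over the 15 genes of the glutamate lists tested this way. Grin2a, the GluN2A subunit that in brain becomes prominent as synapses mature, summed to 733 reads over the lumbar and 375 over the sacral libraries. It was lower in sacral DRG of 9 of 10 embryos, by 0.90 ± 0.87 on the log2 scale (SD, n = 10), with an exact p of 0.00391 and an adjusted p of 0.0586. It did not pass the threshold. With 15 genes adjusted, a gene that is alone in having a low p can pass only at the smallest possible p. Grin2b summed to 280 lumbar and 472 sacral reads, with 2 to 105 reads in a library, and was higher in sacral DRG of 7 of 10 embryos (adjusted p = 0.447, exact sign-flip permutation test). Grik3, Grid1 and Grin3b had differences of 0.14 ± 0.53, 0.09 ± 0.57 and -0.35 ± 0.61 (SD, n = 10).

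Auxiliary subunits set the trafficking and gating of AMPA and kainate receptors, and several of them differed between levels. Of 13 AMPA receptor auxiliary genes 12 were tested. In sacral DRG 2 were called lower and 2 higher, beside 4.03% and 2.7% of all tested genes. The median difference of the 12 was -0.07 beside -0.05 over all genes. Cacng5, encoding the TARP gamma-5, was lower in 10 of 10 embryos, with 3.36 log2 RPKM in lumbar and 2.03 in sacral DRG and a difference of -1.34 ± 0.21 (adjusted p = 0.000805, limma). Cacng2, encoding stargazin, was lower in 10 of 10 as well, with a difference of -1.19 ± 0.20 (adjusted p = 0.00147, limma), which was -0.55 on log2(RPKM + 1) values. Its mean was 0.30 log2 RPKM in lumbar and -0.89 in sacral DRG, so it passed the filter of 1 RPKM on its lumbar level only. Both genes kept their call in all 21 alternatives, which included a fit with no filter on low values. Shisa9 was higher in 7 of 10 embryos, by 1.14 ± 0.30 (adjusted p = 0.0303, limma) from 5 to 143 reads per library. Its mean was 0.95 log2 RPKM in sacral DRG and -0.19 in lumbar DRG, below the 1 RPKM of the filter. Its difference was 0.57 in the lowest alternative. Cacng3, encoding TARP gamma-3, was higher by 0.46 ± 0.12 (adjusted p = 0.0231, limma). Each of these 2 calls was lost in 8 of 21 alternatives, which included leaving out M3, M5, F3 or F9 for Shisa9 (adjusted p from 0.0663 to 0.0806) and M1, F10 or F7 for Cacng3 (0.0516 to 0.0535). Both were also lost with no filter on low values (0.0533 for Shisa9, 0.0504 for Cacng3) and with quantile normalization (0.0506 and 0.0628). The most abundant auxiliary genes, Cnih2 at 3.50 and Cacng7 at 3.41 log2 RPKM, had differences of -0.09 ± 0.16 and -0.25 ± 0.13 and were not called.

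Of the 2 kainate receptor auxiliary genes, Neto1 was lower in sacral DRG of 10 of 10 embryos, with a difference of -0.77 ± 0.12 (adjusted p = 0.000894, limma) that held in all 21 alternatives. Neto2, at a level of 4.68 log2 RPKM close to that of Grik1, had a difference of -0.08 ± 0.15 and was not called. Of 8 metabotropic glutamate receptor genes 4 were tested and 1, Grm3, was called, beside 6.73% of all tested genes. Grm3, encoding mGluR3, a Gi-coupled receptor, had a difference of -0.996 ± 0.17 (adjusted p = 0.00213, limma) and was lower in 10 of 10 embryos. Grm7, the most abundant of them at 2.36 log2 RPKM, had a difference of -0.15 ± 0.14. None of the 19 tested scaffold and trafficking genes was called, where 6.73% of all tested genes were. The median difference of these 19 was -0.06, and the most abundant, Nsf and Dlg4 (PSD-95), had -0.24 ± 0.15 and -0.06 ± 0.09. The editing enzyme genes Adar and Adarb1 were tested and not called, with 0.11 ± 0.10 and -0.36 ± 0.14. Adarb1 was lower in sacral DRG of 9 of 10 embryos, and its adjusted p of 0.123 went under the threshold without embryo F8 (0.0372) and with libraries weighted by quality (0.0287).

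Of 12 genes of glutamate synthesis, vesicular loading and uptake, 9 were tested. In sacral DRG 1 was called lower and 2 were called higher, beside 4.03% and 2.7% of all tested genes. Slc17a7, encoding the vesicular glutamate transporter VGLUT1, was lower in 10 of 10 embryos, with 1.72 log2 RPKM in lumbar and 0.43 in sacral DRG and a difference of -1.29 ± 0.27 (adjusted p = 0.00744, limma). Its call was lost without the embryo block (adjusted p = 0.0677). Slc17a6, encoding VGLUT2 and the most abundant gene of the list at 5.72, had a difference of -0.30 ± 0.20 and was not called. Slc1a3, encoding the glial glutamate transporter GLAST, was higher by 0.69 ± 0.18 (adjusted p = 0.0295) and Glul, glutamine synthetase, by 0.36 ± 0.10 (adjusted p = 0.0289), calls lost in 10 and 8 of 21 alternatives. These included leaving out M3, M5, M8, F10, F3 or F9 for Slc1a3 (adjusted p from 0.0558 to 0.0975) and M1, M3, M5, F10, F3 or F7 for Glul (0.0547 to 0.0981). Slc38a2, a glutamine transporter with the second highest level, had 0.22 ± 0.09 (adjusted p = 0.145) and passed without F8 (0.0364) and with quantile normalization (0.0432).

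**Figure D5:**
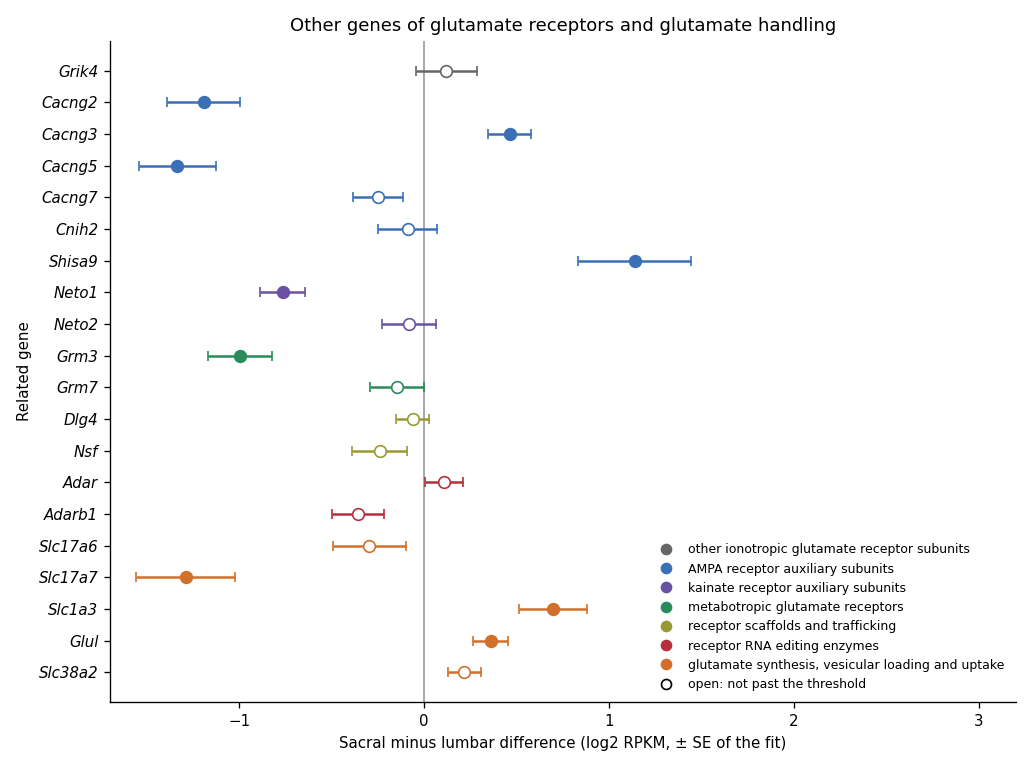
Sacral minus lumbar difference in log2 RPKM (x axis, point with a bar for ± SE) for the related genes named in the text (y axis), coloured by gene list, with filled points for an adjusted p of at most 0.05. Cacng5, Slc17a7, Cacng2, Grm3 and Neto1 lie furthest to the lumbar side and Shisa9 furthest to the sacral side.

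Lists of cell-type genes also differed between the levels, in both directions. The large myelinated neuron genes had a median difference of -0.51, from -1.52 for Kcns1 and -1.33 for Pvalb, both called, to 0.28 for Ntrk2 and 0.70 for Spp1, which were not, and the median over the list was lower in sacral DRG of 10 of 10 embryos. The Schwann and satellite glia genes had a median of -0.34, lower in 10 of 10 embryos, and the small nociceptive neuron genes a median of -0.28, with 1 gene called lower and 1 higher of 12. The skeletal muscle genes had a median of -0.53 with none of 10 called. The fibroblast and meningeal genes had a median of 0.55 with 5 of 10 called higher, and the 3 tested cartilage genes a median of 0.80 with 1 called higher. Over all tested genes 4.03% were called lower and 2.7% higher. Some called genes had a mean below the 1 RPKM of the filter at the level where they were lower. These were Kcns1 (-0.82 log2 RPKM), Prx (-0.62) and Egr2 (-1.18) in sacral DRG and Twist1 (-0.79) in lumbar DRG. Such genes can enter the fit through the groups where they are higher. The summed level of the large myelinated neuron genes was 106 to 203 RPKM in lumbar and 87.6 to 132 RPKM in sacral libraries, and that of the fibroblast genes 215 to 482 and 289 to 630 RPKM. No defining gene of these lists was at 0 in all libraries. The part of these cells in the subunit differences was not tested.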

How the data were processed

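Whole ganglia of both levels from 10 E18.5 embryos were sequenced by the authors after whole-transcriptome cDNA amplification. The authors aligned reads to mm9 with Subread, counted uniquely mapped reads per Ensembl gene with featureCounts, and deposited log2 RPKM values after TMM and voom scaling, with a blank where a gene had no reads. Whether counting used strand is not given in the sources used here. Each deposited log2 value was turned back into reads with GENCODE M1 exon lengths: 98.3% of values lay at most 0.05 reads from a whole number, and a blank was set to 0.5 reads. Raw counts were not among the files, so the test was fitted to the deposited log2 RPKM. The libraries were amplified and carry no molecular identifiers, so read numbers give counting error only.

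Differences were fitted with limma 3.58.1 (R 4.3.3, statmod 1.5.0) over 20 libraries with a mean for each of 4 groups, embryo as a block (duplicateCorrelation, 0.342) and a trend of variance on level. Genes entered the fit where the mean log2 RPKM reached that of 1 RPKM in at least 1 group. P-values were two-sided and adjusted (Benjamini-Hochberg) over 14529 genes, with a threshold of 0.05. The function was tested on simulated data. Embryo numbers pair the libraries because both libraries of a number come from the same embryo per the labels; the correlation of their deviations from group means ran from -0.17 to 0.68.

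Named were all 10 members, the other ionotropic subunits, the called and the 2 most abundant genes of each related list (at most 6 called), and the 3 closest co-varying genes of each member; single cell-type genes were chosen after their values were seen. The members and lists were chosen with earlier results of these data known, and 1 gene of the named sets is not reported here.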

Additional observations from a re-analysis of the deposited data

Results flagged for a closer look

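Among 90 groups of subunit gene values, 8 held a sample far from the others; chance alone gives about 1 in 20. Embryo F7 stood lowest in sacral female DRG for Gria2 (1.87 log2 RPKM, the others 2.59 to 2.81) and for Gria4 (1.65, the others 2.47 to 2.73), and its Gria4 share of the AMPA class was 27.5% there (the others 34.1% to 36.0%). Its Grin3a share of the NMDA class was highest in lumbar female DRG, at 22.9% (the others 15.4% to 17.6%). Embryo M5 stood lowest in lumbar male DRG for Gria4, at 2.68 log2 RPKM (the others 3.47 to 3.78), with a Gria4 share of 36.7% (the others 44.0% to 46.9%). In sacral male DRG its Gria3 share was highest, at 23.2% (the others 12.9% to 14.9%). M5 and F7 had the highest mitochondrial rRNA shares, with a mean over both libraries of 55.3% and 46.8%; the part of that share in these values was not tested. Embryo M7 had the highest sacral minus lumbar difference of Grik5, 0.94 (the others -0.55 to 0.14).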

How the results depend on the processing

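The subunit genes were refitted under 21 alternatives. The number called for spinal level was 2 and ranged from 1 to 3 when 1 embryo was left out at a time. It was 0 with no replicate block, that is, with the pairing of libraries by embryo ignored, 4 with array weights (Gria2 and Grik1 added), and 1, Gria4, without the 2 embryos of highest mitochondrial rRNA share, an alternative chosen after seeing the data. A filter on the arithmetic mean RPKM, also added after seeing the data, left it at 2. For sex in sacral DRG 0 were called, and 1 (Gria4) with array weights or with the mitochondrial rRNA share as a covariate. The counts of 0 for sex in lumbar DRG and for the interaction were the same in each alternative run.

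Signs turned only for genes near 0 that no setting called. The level difference of Gria1 was -0.019 without M7 and ranged from -0.049 (without F8) to 0.12 over the embryos left out in turn, and was -0.12 with array weights and -0.0047 without the 2 embryos of highest mitochondrial rRNA share. That of Grik5 ranged from -0.13 to 0.026 over the embryos left out in turn, was above 0 without M3, M8 (0.022) or F10 (0.021), and was 0.024 with quantile normalization, which also gave 0.036 for Neto2 and 0.014 for Dlg4.

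Over all genes 978 were called for level, 154 without the block, 404 without F10, 1608 without F8, 490 without M5, 519 without F7, 557 without F3, 600 without M1, 2998 with array weights and 265 without M5 and F7. Quantile normalization gave 437 higher and 410 lower calls beside 392 and 586. The causes were not tested. Of the 10 subunit genes Grin2d had the fewest reads, 81 to 463 per library.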

Other observations

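Embryo M7, noticed after the values were seen, also had the highest sacral minus lumbar difference of the 10 embryos for Grik2 (1.20), Grin3a (1.22) and Grin1 (0.75), while its Gria4 difference was -0.32 and its Grin2d difference 0.42.

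The sacral minus lumbar difference of each subunit gene was set against that of the mitochondrial rRNA share over the 10 embryos, which makes 10 relations. For Gria4 Pearson's r was -0.47 and Spearman's rho -0.50, with permutation p-values of 0.173 and 0.148 (0.497 and 0.471 after adjustment over the 10 relations). For Grin2d r was 0.37 and rho 0.43, with permutation p-values of 0.289 and 0.217 (0.579 and 0.471 adjusted). Leaving out F9 and M8, the 2 embryos farthest from the median, gave r of -0.46 for Gria4 and 0.53 for Grin2d. The strongest of the 10 relations was that of Grik5, with r of -0.50 and rho of -0.65. Its permutation p-values were 0.0914 and 0.0495 (0.497 and 0.471 adjusted). None of the 10 relations passed an adjusted p of 0.05, with permutations of 100000 resamples. With 10 embryos, these tests cannot show that a relation is absent.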
